A study of Mus musculus with 2 samples.

Results

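The subject was the gp130 cytokine receptor group in cultured mouse fibroblasts: the receptor genes Lifr, Osmr, Il6st, Il6ra and Il11ra1, the ligand genes Lif and Il6, the transcription factor gene Stat3 and the feedback inhibitor gene Socs3. These 9 genes were taken by exact gene symbol in the platform annotation, out of 18193 genes with a symbol of their own. Of these, 8, carrying 22 probe sets, could be matched, and 7 were bright enough to be counted as measured. Il11ra1 was not analysed here. Lifr and Osmr were picked because they differ between these same arrays, so their differences are given as a description.

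The samples were mouse embryonic fibroblasts (MEFs), connective-tissue cells taken from embryos, in culture with 10% fetal calf serum. The groups were Fut8-/-, in which both copies of Fut8 are disrupted, and Fut8+/+, which carries the normal gene. Each was represented by 1 Affymetrix array, although the design text speaks of 3 dishes per genotype. The age of the embryos and whether the cells were immortalised are not stated in the labels. The Fut8 enzyme, an alpha1,6-fucosyltransferase, puts the core fucose on N-linked glycans. With 1 array a group no difference below has a replicate check and no test of genotype could be made.

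The cytokines of the interleukin-6 family signal through a shared receptor chain, gp130, which Il6st encodes. Leukaemia inhibitory factor joins gp130 to the LIF receptor (Lifr). In the mouse, oncostatin M joins it to the oncostatin M receptor (Osmr), and interleukin-6 first binds its own receptor chain (Il6ra). Bound receptors activate JAK kinases and STAT3, and SOCS3, whose gene STAT3 induces, binds gp130 and shuts the signal off. Fibroblasts are a known source of LIF, which is why MEFs serve as feeder cells for mouse embryonic stem cells. The receptor chains are themselves N-glycosylated proteins. Only messenger RNA was measured here.

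Lifr and Osmr lie side by side on mouse chromosome 15, with 0 protein-coding genes between them in the RefSeq annotation of assembly GRCm38.p6, and are read from opposite strands. Their promoters are shown because these 2 genes were the members with the larger differences, and that of Socs3 because it was the only member promoter that held the STAT-type motif. Each window runs from 250 bases before to 50 bases after an annotated start, 5′ to 3′ along the gene's own strand, from RefSeq (GRCm38.p6). Promoter sequences were found for all 9 members. Capitals mark matches on either strand to TTCNNNGAA (STAT type), TGACTCA (AP-1 type) and GGGCGG (GC box), and no matches overlapped in the windows shown.
Lifr promoter 1, chr15:7129322-7129621, plus strand: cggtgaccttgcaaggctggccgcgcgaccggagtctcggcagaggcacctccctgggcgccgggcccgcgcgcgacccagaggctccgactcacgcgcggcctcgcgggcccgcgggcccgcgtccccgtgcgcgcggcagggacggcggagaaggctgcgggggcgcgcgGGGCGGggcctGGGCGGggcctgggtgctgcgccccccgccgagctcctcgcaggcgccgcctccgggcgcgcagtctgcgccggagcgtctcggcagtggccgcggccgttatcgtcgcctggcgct
Lifr promoter 2, chr15:7140292-7140591, plus strand: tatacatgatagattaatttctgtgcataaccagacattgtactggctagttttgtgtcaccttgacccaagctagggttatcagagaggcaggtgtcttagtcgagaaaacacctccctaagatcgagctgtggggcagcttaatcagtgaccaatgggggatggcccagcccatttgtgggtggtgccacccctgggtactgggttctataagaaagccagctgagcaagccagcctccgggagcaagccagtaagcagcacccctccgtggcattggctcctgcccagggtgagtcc
Osmr promoter, chr15:6874264-6874563, minus strand: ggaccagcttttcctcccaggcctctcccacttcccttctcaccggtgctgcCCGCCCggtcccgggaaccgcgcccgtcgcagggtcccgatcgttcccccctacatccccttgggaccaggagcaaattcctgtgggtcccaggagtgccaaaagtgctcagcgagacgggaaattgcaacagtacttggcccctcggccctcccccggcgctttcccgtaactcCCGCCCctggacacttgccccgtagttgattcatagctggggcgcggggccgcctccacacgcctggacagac
Socs3 promoter, chr11:117969317-117969616, minus strand: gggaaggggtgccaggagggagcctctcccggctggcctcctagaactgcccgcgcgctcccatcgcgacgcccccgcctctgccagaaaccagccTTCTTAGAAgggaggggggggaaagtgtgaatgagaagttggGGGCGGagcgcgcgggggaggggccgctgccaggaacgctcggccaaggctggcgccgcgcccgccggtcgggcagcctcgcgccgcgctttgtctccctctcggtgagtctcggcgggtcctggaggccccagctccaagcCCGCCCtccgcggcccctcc

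The upstream Lifr window and the Osmr window each held 2 GC boxes, and the downstream Lifr window held none of the 3 motifs. GC made up 81.3% of the upstream Lifr window, 53.3% of the downstream one and 66% of the Osmr window. The Socs3 window held 1 STAT-type match, which began 154 bases before the start, and 2 GC boxes. Over all 32851 promoter windows of this length in the table, 8.3% held the STAT-type motif, 5.2% the AP-1 type and 35.7% a GC box. A match is a string of letters and does not show that a factor binds.

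Ratios are Fut8-/- over Fut8+/+ on the log2 scale, after the Fut8-/- signals were multiplied by 1.16 to bring the median ratio of the arrays to 0. Signals are printed as deposited, on a linear scale in arbitrary units. Scaled signals below 12.3 were raised to that floor before the ratio was taken, so that a ratio in which either array sits at the floor is only a bound. A gene counts as measured where the brighter array reached 39.1, and as higher or lower where the ratio passed 2-fold. Each gene is represented by its probe set with the highest mean log2 signal. Probe sets of the same gene differed in log2 ratio with an SD of 0.40, or 1.32-fold (5389 genes). This is spread within this pair of arrays, not the error between cultures.

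Fut8 itself had a signal of 11.7 in Fut8-/- and 191 in Fut8+/+, so it was 14.1-fold lower, at the brightest of its probe sets. The labels do not say whether that probe set reads the disrupted part. Of 15 fibroblast markers 11 were measured, of which 1 was higher by the 2-fold limit, 4 were lower and 6 were neither (median log2 ratio -0.36). Among all 10164 measured genes, 6.08% were higher and 8.46% were lower by that limit. Prrx1 was at least 17.9-fold lower, Fbln2 5.06-fold lower, Col1a1 2.59-fold lower and Pdgfra 2.26-fold lower, and Pdgfrb was 2.13-fold higher. The brightest markers were close on both arrays: Col1a2 had 9433 in Fut8-/- and 11280 in Fut8+/+, and Vim had 11110 in Fut8-/- and 11471 in Fut8+/+. The limit was not reached by Thy1, Dcn, Lum or Fap on either array. The summed signal of the list, carried mostly by its brightest genes, was 39684 as deposited, or 46179 after scaling, in Fut8-/- and 45324 in Fut8+/+. The marker sums that follow are as deposited and run over all genes of a list, measured or not. Among 8 epithelial markers 3 were measured, and the summed signal of all 8 was 308 in Fut8-/- and 116 in Fut8+/+. Krt19 was at least 14.6-fold higher and Dsp at least 6.70-fold higher, Epcam was 2.43-fold lower, and Cdh1 and Krt18 were below the floor on both arrays. Leukocyte markers summed to 164 in Fut8-/- and 239 in Fut8+/+ (2 of 9 measured), with Ptprc, Adgre1 and Itgam below the floor on both. Endothelial markers summed to 224 in Fut8-/- and 351 in Fut8+/+ (2 of 8 measured), with Pecam1 and Tie1 below the floor on both. Measured were Egfl7, with 113 in Fut8-/- and 193 in Fut8+/+, and Eng, with 62.1 in Fut8-/- and 52.0 in Fut8+/+. Of 7 pluripotent stem cell markers 3 were measured, and all 7 summed to 97.8 in Fut8-/- and 172 in Fut8+/+. Esrrb and Dppa5a were dim and higher (2.47-fold and 2.67-fold). The other Esrrb probe sets, below the measured limit on both arrays, had log2 ratios of 0.06 and -0.16 and did not show that difference. Sox2 was at least 9.60-fold lower, Nanog and Zfp42 were below the floor on both arrays, and Pou5f1 was below the measured limit on both. Transcripts of the sex chromosomes differed too: Eif2s3y of chromosome Y had 2845 in Fut8-/- and 7.06 in Fut8+/+, and Xist had 15.2 in Fut8-/- and 656 in Fut8+/+. The part of cell makeup and of sex in the results below was not tested, and 1 array per genotype cannot separate either from genotype. In such bulk RNA, fewer cells of a type and less RNA per cell cannot be told apart.

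Among the receptors, both Lifr and Osmr gave higher signals on the Fut8-/- array. The shared chain and the interleukin-6 receptor stayed within 2-fold at their brightest probe sets. Lifr, read by probe set 1454984_at, had a signal of 131 in Fut8-/- and 7.06 in Fut8+/+. The Fut8+/+ value was below the floor, so Lifr was at least 12.3-fold higher in Fut8-/- (log2 ratio at least 3.62). Both remaining Lifr probe sets were below the floor on both arrays. Probe set 1425107_a_at had 7.19 in Fut8-/- and 4.19 in Fut8+/+, and 1450207_at had 6.73 in Fut8-/- and 1.88 in Fut8+/+. The Lifr difference therefore rests on 1 probe set, since the others give no ratio.

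Osmr, which encodes the signalling chain for oncostatin M in the mouse, had 287 in Fut8-/- and 102 in Fut8+/+ at probe set 1418674_at. It was 3.26-fold higher in Fut8-/- (log2 ratio 1.71), with both arrays well above the measured limit. Probe set 1459217_at, above the floor but below the measured limit on both arrays, had 16.6 in Fut8-/- and 18.4 in Fut8+/+ (log2 ratio 0.07) and did not show that difference. The remaining one, 1418675_at, had 11.5 in Fut8-/- and 11.0 in Fut8+/+, at or next to the floor (log2 ratio 0.11), and did not show it either. The Osmr difference thus also rests on 1 probe set.

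Across all 10164 measured genes, 6.08% were higher in Fut8-/- by the 2-fold limit and 8.46% were lower, and 2 of the 7 measured members were higher and 0 lower. Because the members were chosen from this comparison, nothing is read from that count. The share of 2-fold differences depends on brightness. With the measured genes split by brightness into 4 classes of 2541, the dimmest class, which holds Lifr, had 13.3% of its genes higher by that limit, and the next, which holds Osmr, had 4.57%. Without the centring of the ratio, 416 genes were higher and 1205 lower in place of 618 and 860, so higher genes made up 25.7% in place of 41.8% of those counted. Both Lifr and Osmr stayed past 2-fold at their brightest probe set without it.

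**Figure D1:**
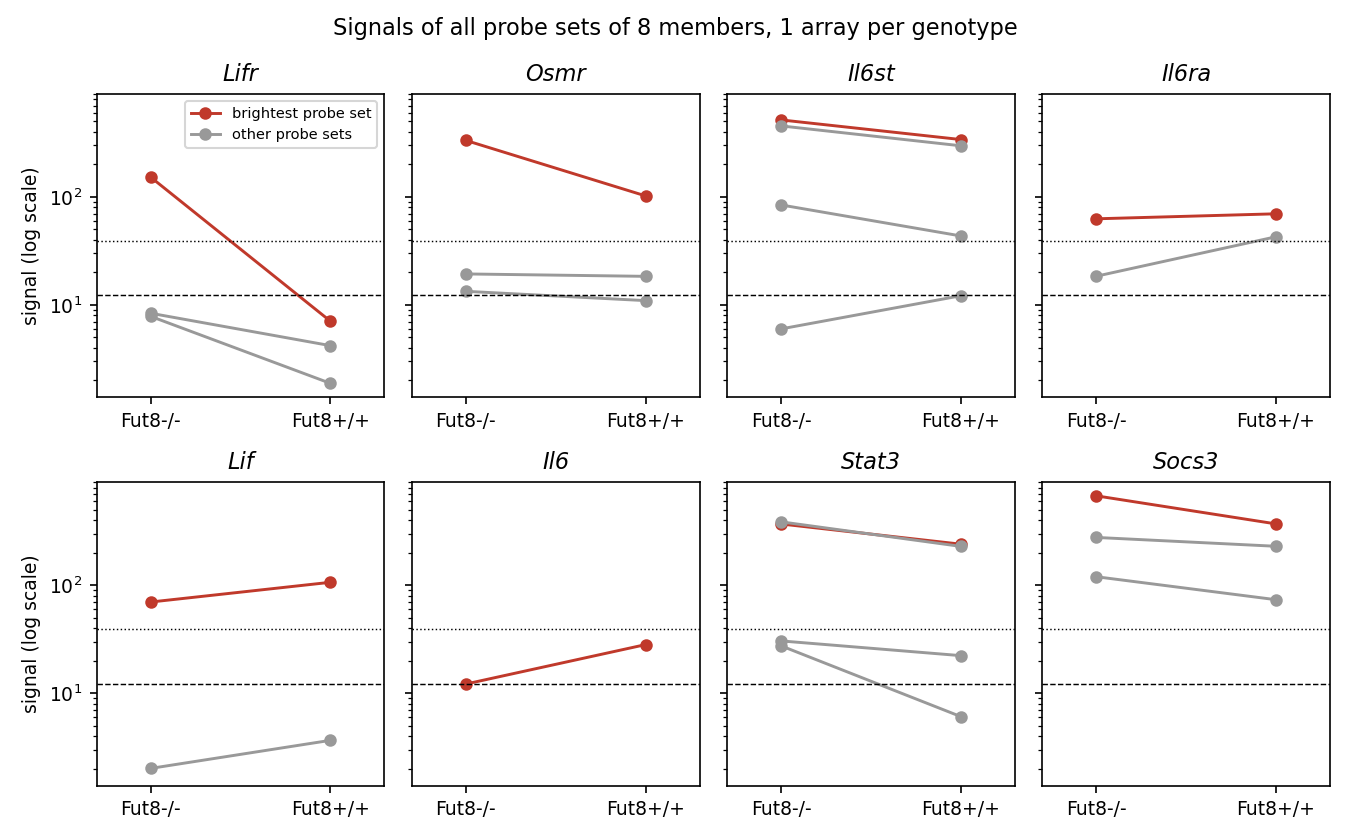
Signals of every probe set of the 8 members with data, on a log axis in arbitrary units, for the Fut8-/- array (left, multiplied by 1.16) and the Fut8+/+ array (right); red marks the probe set used for the gene, grey the others, the dashed line the floor of 12.3 and the dotted line the measured limit of 39.1. The red Lifr and Osmr lines fall toward Fut8+/+, the grey ones of both genes lie below the dotted line, and the probe sets of Stat3 and Socs3 run the same way.

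Il6st, the gp130 chain that all these cytokines share, had 444 in Fut8-/- and 340 in Fut8+/+, a log2 ratio of 0.60. Its next probe sets gave 391 in Fut8-/- and 297 in Fut8+/+ (0.61), and 72.4 in Fut8-/- and 43.5 in Fut8+/+ (0.95). All 3 were higher in Fut8-/- and none passed 2-fold, and the remaining probe set was below the floor on both arrays. Il6st lies on chromosome 13, whose 377 measured genes had a median log2 ratio of 0.56 and of which 19.4% passed 2-fold upward. Set against that median, the Il6st ratio was 0.04. The median of chromosome 15, which holds Lifr and Osmr, was -0.06 (400 genes), so their ratios differed little when set against it (at least 3.69 for Lifr and 1.77 for Osmr).

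Il6ra, the chain that binds interleukin-6, had 53.9 in Fut8-/- and 69.7 in Fut8+/+ at its brighter probe set, a log2 ratio of -0.15. The other Il6ra probe set gave 15.8 in Fut8-/- and 42.7 in Fut8+/+, a log2 ratio of -1.21. The sign was shared but only the dimmer probe set passed 2-fold. The remaining receptor chains of the family were dim on both arrays. Cntfr, for ciliary neurotrophic factor, had 19.2 in Fut8-/- and 1.46 in Fut8+/+. Il27ra and Il31ra were below the floor on both. Of the 4 measured receptor genes of the family, 2 were thus higher, 0 lower and 2 within 2-fold, with Lifr and Osmr as members by choice. Among all measured genes, 6.08% were higher and 8.46% lower.

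None of the measured ligand genes was higher by the 2-fold limit. Lif had 60.3 in Fut8-/- and 107 in Fut8+/+, a log2 ratio of -0.61, and its second probe set was below the floor on both arrays. Il6 had 10.5 in Fut8-/- and 28.3 in Fut8+/+; both are under the measured limit, so the gene was not counted either way. Ctf1, which encodes cardiotrophin-1, another LIF receptor ligand, was 2.40-fold lower, with 75.2 in Fut8-/- and 210 in Fut8+/+. Set against the median of its chromosome, the Ctf1 log2 ratio was -0.94, within 2-fold. Clcf1, which encodes a ligand of the ciliary neurotrophic factor receptor, had 186 in Fut8-/- and 147 in Fut8+/+ (log2 ratio 0.56). Oncostatin M itself (Osm) was dim, with 21.6 in Fut8-/- and 16.7 in Fut8+/+, and Il11 had 10.7 in Fut8-/- and 5.11 in Fut8+/+. Of the 3 measured ligand genes, 1 was lower and 0 were higher, where 8.46% and 6.08% of all measured genes were lower and higher.

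Stat3 and Socs3, downstream of the receptors, had higher signals in Fut8-/- by less than 2-fold. Stat3 had 318 in Fut8-/- and 241 in Fut8+/+ at its brightest probe set (log2 ratio 0.62), and 333 in Fut8-/- and 230 in Fut8+/+ at the next (0.76). Another, below the measured limit, gave 26.3 in Fut8-/- and 22.4 in Fut8+/+ (0.45), and the last had 23.7 in Fut8-/- and 6.10 in Fut8+/+, the second value being at the floor. Every Stat3 probe set was thus higher in Fut8-/-. Socs3 had 581 in Fut8-/- and 371 in Fut8+/+ (log2 ratio 0.86). That probe set is of a design type that may also bind related transcripts. The Socs3 probe set with a specific design had 103 in Fut8-/- and 73.8 in Fut8+/+ (0.71), and the remaining one had 239 in Fut8-/- and 230 in Fut8+/+ (0.27). Over all measured genes the median ratio was 0.00.

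**Figure D2:**
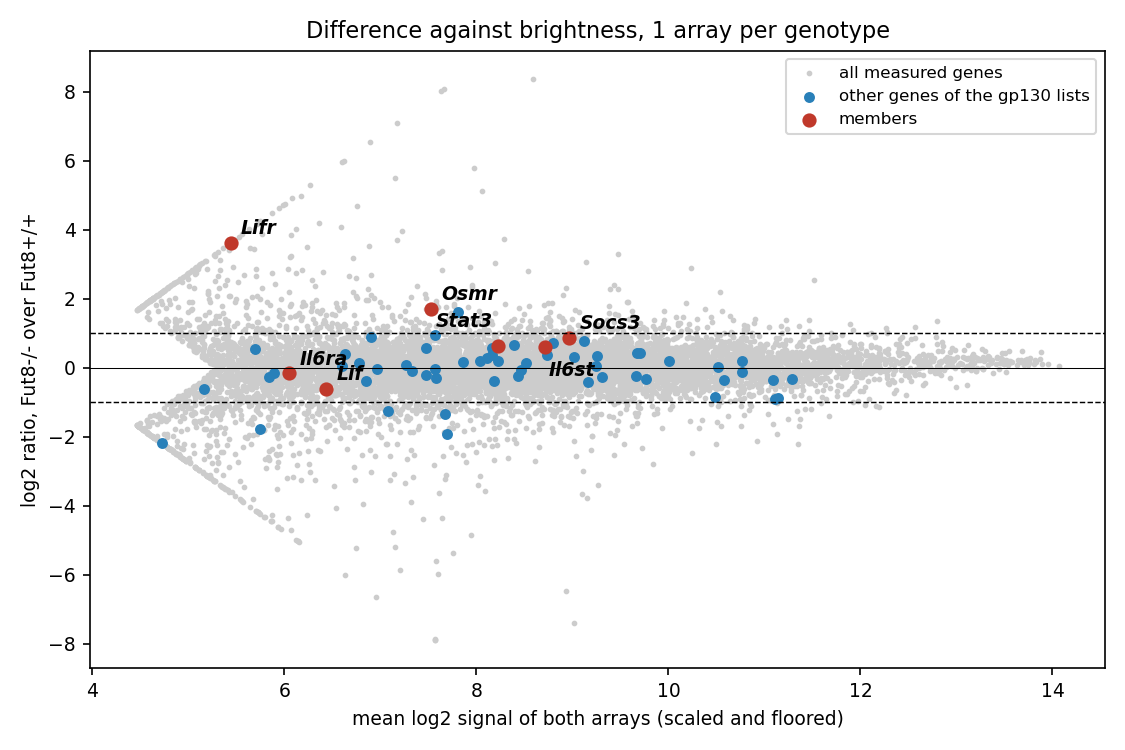
Log2 ratio of Fut8-/- over Fut8+/+ (vertical) against mean log2 signal of both arrays (horizontal) for the 10164 measured genes in grey, with the genes of the gp130 lists in blue and the 7 measured members in red; dashed lines mark 2-fold. Lifr lies on the straight upper edge, formed by genes at the floor in Fut8+/+, Osmr lies above the 2-fold line, and the other members lie between the lines.

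All 17 measured genes of the signalling chain below the receptors lay within 2-fold (median log2 ratio 0.13), as did 85.5% of all measured genes. The ratios above 0 that came nearest to the limit were those of Pik3r1, a regulatory subunit gene of phosphoinositide 3-kinase (0.88), and Sos1, which encodes an activator of Ras (0.71). The phosphatase gene Ptpn11, which links gp130 to the MAP kinase pathway, had 1655 in Fut8-/- and 2468 in Fut8+/+ (log2 ratio -0.36), and the kinase gene Map2k2 had 940 in Fut8-/- and 961 in Fut8+/+ (0.19). Jak1, the kinase that gp130 mainly uses, had log2 ratios of -0.41, -0.65 and -0.16 at its 3 probe sets, all below 0 and none past 2-fold.

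Of 16 measured inhibitor genes, 1 passed 2-fold downward (6.25%), 0 passed it upward and 15 did neither (median 0.24). The downward share was near that of all measured genes, 8.46%, and 6.08% of all measured genes passed it upward. The lower inhibitor gene was Socs2, best known for acting on growth hormone signalling. It was 3.45-fold lower with 24.9 in Fut8-/- and 99.7 in Fut8+/+. Its second probe set gave 12.2 in Fut8-/- and 85.9 in Fut8+/+. The other 4 Socs2 probe sets were at the floor on at least 1 array and below the measured limit on both, so the median over its 6 probe sets was 0. The brightest inhibitor genes were within 2-fold: the phosphatase gene Ptpn2 had a log2 ratio of 0.03 and Ptpn1 0.42. Socs2 and Socs3 therefore had ratios of opposite sign, and only that of Socs2 passed 2-fold.

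Of 24 measured genes known to be induced by STAT3, 1 was higher by the 2-fold limit (4.17%), 3 were lower (12.5%) and 20 were neither (median -0.21). Both shares are near those of all measured genes, 6.08% and 8.46%. Cebpd, an acute-phase transcription factor gene, was 3.08-fold higher with 338 in Fut8-/- and 128 in Fut8+/+, and its dim probe set gave 0.93 on the log2 scale. Bcl3, which encodes a nuclear partner of NF-kappaB, was at least 4.58-fold lower, with 1.39 in Fut8-/- and 56.5 in Fut8+/+. Klf4, a transcription factor gene that LIF induces in mouse embryonic stem cells, was 3.80-fold lower with 91.4 in Fut8-/- and 404 in Fut8+/+; its other probe set was 2.14-fold lower. Vegfa, the vascular growth factor gene, was 2.53-fold lower, with 110 in Fut8-/- and 324 in Fut8+/+ at the brighter probe set and a log2 ratio of -0.49 at the other. The brightest targets within 2-fold were Tnfrsf12a (log2 ratio -0.34) and Hif1a (-0.87). Several acute-phase targets, among them Lcn2, Serpina3n, Lrg1, Steap4 and Hp, were below the floor on both arrays.

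Taking the 5 role lists as 1 set of 63 measured genes, 3 were higher by the 2-fold limit (4.76%) and 5 lower (7.94%), against 6.08% and 8.46% of all measured genes. The 3 higher ones were Lifr, Osmr and Cebpd, the first 2 of which were members by choice. The median ratio was 0.04. Without centring, 8 were lower, the additional ones being Ccnd1 (-1.07), Hif1a (-1.09) and Timp1 (-1.12).

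**Figure D3:**
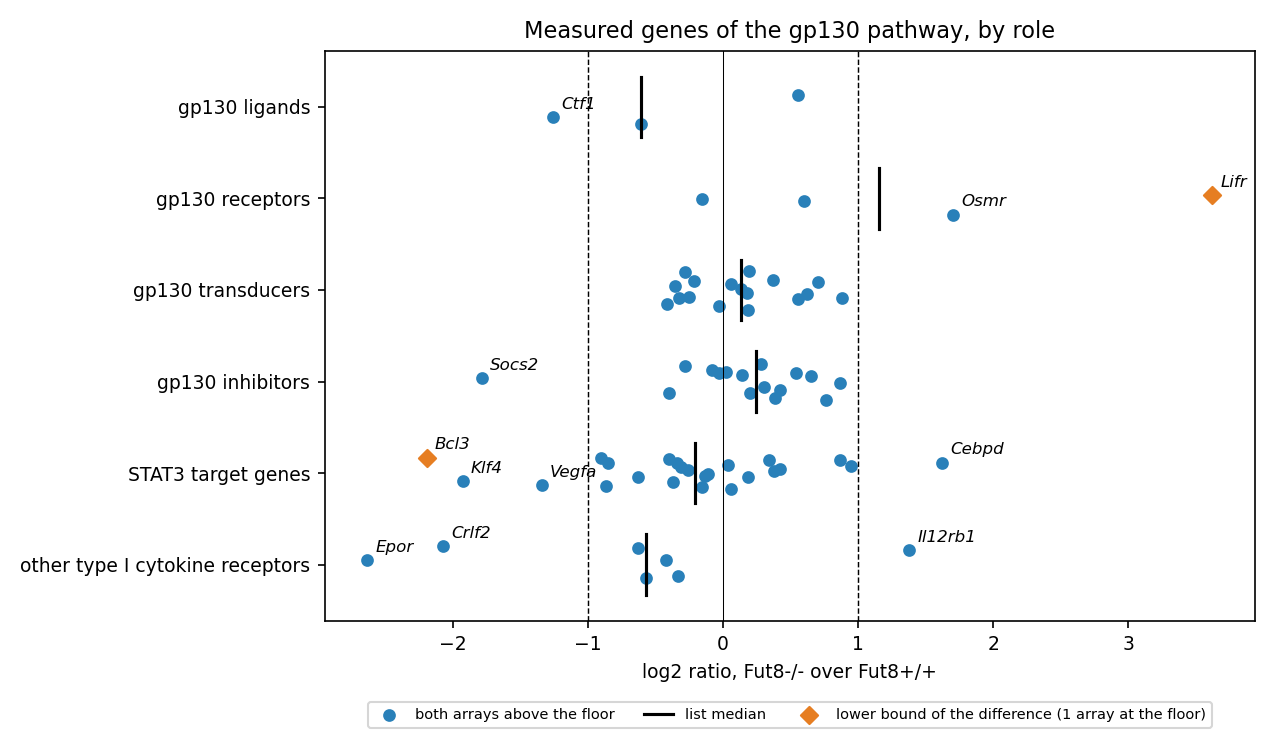
Log2 ratio of Fut8-/- over Fut8+/+ (horizontal) of each measured gene by role (rows), with genes past 2-fold named, dashed lines at 2-fold, bars at the list medians and orange diamonds for bounds with 1 array at the floor. Transducers all lie between the dashed lines, Lifr and Osmr stand to the right among the receptors, and targets fall on both sides.

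Other receptors of the same structural class, the type I cytokine receptors outside the gp130 group, had ratios below 0 for 6 of 7 measured genes, against 49.9% of all measured genes. Out of 22 listed, 1 of the 7 was higher by the 2-fold limit, 2 were lower and 4 were neither (median -0.57), where 6.08% and 8.46% of all measured genes were higher and lower. Epor, the erythropoietin receptor gene, was 6.20-fold lower, with 11.1 in Fut8-/- and 80.1 in Fut8+/+. It has 1 probe set, and its scaled Fut8-/- signal lay just above the floor. Crlf2, which encodes the receptor chain for thymic stromal lymphopoietin, was 4.21-fold lower with 140 in Fut8-/- and 688 in Fut8+/+. Il12rb1 was 2.60-fold higher with 41.6 in Fut8-/- and 18.6 in Fut8+/+. The growth hormone receptor gene Ghr, also on chromosome 15, had a log2 ratio of -0.42 and Il13ra1 one of -0.33. The next Ghr probe set, with 148 in Fut8-/- and 157 in Fut8+/+, had the opposite sign (0.13). The last, below the measured limit on both arrays, had -0.51. No test of a difference between the receptor groups was possible with 1 array each.

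Since Lifr and Osmr are adjacent, the 5 measured genes on each side were read as well. Of these 10 neighbours, 3 were higher by the 2-fold limit, 1 was lower and 6 were neither, with a median of 0.41. On chromosome 15 as a whole 9.5% of the 400 measured genes were higher by that limit, and 31 of the 400 were lower. All 3 higher neighbours lay on the Osmr side. Dab2, an endocytic adaptor gene, was 3.44-fold higher, with 1059 in Fut8-/- and 358 in Fut8+/+, and 3 of its 4 probe sets passed 2-fold. Fyb, which encodes an adaptor protein best known from T cells, was 5.15-fold higher with 62.4 in Fut8-/- and 14.1 in Fut8+/+. Ptger4, the gene of a prostaglandin E2 receptor, was 3.02-fold higher with 61.5 in Fut8-/- and 23.7 in Fut8+/+. Its other probe set was below the floor on both arrays. Rictor, between Fyb and Osmr, had 267 in Fut8-/- and 317 in Fut8+/+ (log2 ratio -0.03), and Ttc33, the outermost gene on that side, had a log2 ratio of 0.54. On the Lifr side, the neurotrophic factor gene Gdnf was 3.61-fold lower with 66.6 in Fut8-/- and 280 in Fut8+/+. Beyond Gdnf, Wdr70, Nup155, Cplane1 and Nipbl had ratios between -0.06 and 0.42. The run of higher genes from Ptger4 to Lifr, in which Osmr and Lifr were members by choice, is thus interrupted at Rictor and ends at Gdnf.

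**Figure D4:**
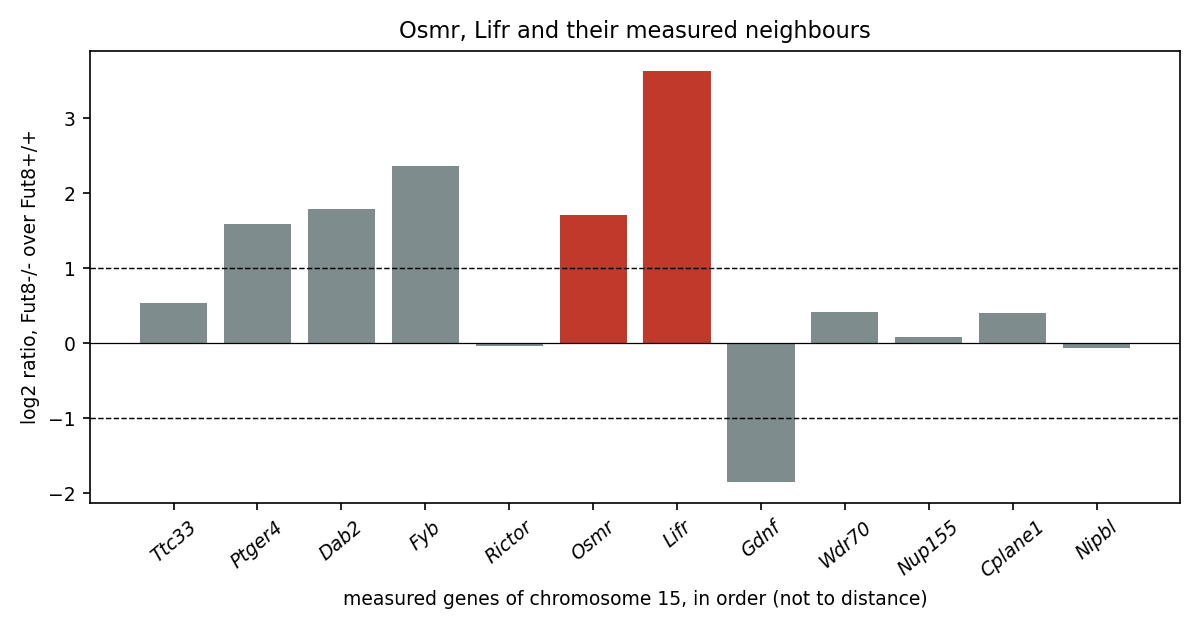
Log2 ratio of Fut8-/- over Fut8+/+ (bars from 0) of Osmr and Lifr in red and of the 5 measured genes on each side in grey, in chromosome order with no scale of distance; dashed lines mark 2-fold and the Lifr bar is a lower bound. Ptger4, Dab2 and Fyb also exceed the upper line, Rictor is near 0 and Gdnf is below the lower line.

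The genes whose signals lay nearest to those of Lifr over the 2 arrays, by Euclidean distance of floored log2 signals, were Ctla2b, Plpp3 and Robo1, at distances of 0.034, 0.046 and 0.075. Nearest to Osmr were Cbr1, Ddx41 and Bphl, at 0.071, 0.072 and 0.10. Cbr1, for example, had 289 in Fut8-/- and 107 in Fut8+/+. Lifr, Ctla2b and Plpp3 were all at the floor in Fut8+/+, so the distances of Ctla2b and Plpp3 reflect the Fut8-/- signals only. With 2 arrays such likeness describes the pair of signals only.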

How the data were processed

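The authors deposited a linear signal intensity for every probe set on each array. GCOS, the Affymetrix operating software, produced these intensity values per the submitters' processing notes; version, algorithm and scaling target are not given in the sources used. The table has 45101 probe sets; the median signal was 16.9 in Fut8-/- and 20.5 in Fut8+/+, so scale and centring stay unknown beyond being linear. Of these, 34945 had 1 gene symbol in the platform annotation, 932 had several, 9160 had none and 64 were controls; only the first were used. Gene identifiers matched RefSeq (GRCm38.p6) for 34741 of them, which gave chromosome and gene order.

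Log2 ratios of the deposited intensity values were centred on the median (-0.22) of the probe sets that exceeded the 40th percentile of each array. The floor was the 40th and the measured limit the 60th percentile of both arrays pooled. The number of arrays limits the precision. Steps were run in Python 3.11.15 and tested on simulated data. The members and gene lists were chosen with earlier results of these data known. Named genes were the members, genes of the pathway lists past 2-fold, the 2 brightest others of each list, the 5 neighbours on each side, the 3 nearest genes and Fut8; Jak1, Osm, Il11, Cntfr, Il27ra, Il31ra, the dim acute-phase genes, Timp1, Ccnd1, Pik3r1, Sos1, the markers and the sex-linked genes were named after their values were seen. List genes without a match to their exact symbol were not analysed here.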

Additional observations from a re-analysis of the deposited data

How the results depend on the processing

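The ratios of the 8 members with data were recomputed under 9 alternatives, with the higher and lower counts of the family and of all measured genes. This gave 104 values, of which 91 stayed close to the reported one and 13 moved, and no called value changed sign. Ratios of all other genes, markers and neighbours included, were not among these 104 values. "Close" means within the probe set SD of 0.40 for a log2 ratio and within 1.5 times for a count. The Lifr log2 ratio was 4.43 with the floor at the 20th percentile, where both arrays lay above it, and 1.96 with the floor at the 60th. With the median over all probe sets of a gene, the Lifr ratio was 0, because its other probe sets are below the floor on both arrays and give 0 by construction, the Osmr ratio was 0.11, the Socs2 ratio 0 and the Vegfa ratio -0.92; the family then had 1 gene higher and 3 lower. The family had 8 genes lower without centring, and 3 lower with the filter at the 75th percentile, where Lifr, Il6ra, Lif and Il6 were below the limit. That filter left 332 of all genes higher and 448 lower, from 7409 tested. Among the other members, Il6 was at 0 with the floor at the 60th percentile, Il6ra at -0.68 with the median over probe sets and Il6st at 0.04 after centring by chromosome, which also ended the Ctf1 call (-0.94) and brought Fos past 2-fold (1.33). Over the other alternatives Osmr lay between 1.49 and 1.77. No paired analysis was possible because each genotype has 1 array. Signals near the floor limit Lifr in Fut8+/+, and the 1 array per genotype limits every value.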
